A study of Mus musculus with 11 samples.

Results

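The simple epithelial keratins Krt8, Krt18, Krt19 and Krt7 were followed over 11 mouse arrays. They are 4 of the 19938 genes with a single-symbol probe, and each was read by 1 probe (Krt8 by 10432918, Krt18 by 10427075, Krt19 by 10391036 and Krt7 by 10427052). The 4 genes were picked by name with their ratios on these same arrays already known, so their levels and tissue differences are given as a description and without a test.

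Each array held RNA from laser-captured tissue of CD1 outbred mouse embryos at E8.5, taken from frozen sections and amplified before labelling. No genetic change or treatment is named for any group. There were 3 arrays of neuroepithelium, the epithelium of the neural tube, 5 of neural crest, the cells that leave it, and 3 of paraxial mesoderm, the tissue beside the neural tube that forms somites. The series speaks of single cells, but neither a cell count nor the embryo of origin is labelled for any array. Arrays may share an embryo. Where arrays of the same tissue do, p-values over arrays are too small. Where arrays of different tissues do, the main fit leaves out that pairing. Any p-value here sets a difference only against the spread between these arrays, which may be technical.

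Keratins build the intermediate filaments of epithelial cells. A filament needs a type II (basic) and a type I (acidic) keratin, which pair as obligate partners, and a keratin without its partner is degraded. Krt8 and Krt7 are type II, Krt18 and Krt19 are type I. Krt8 with Krt18 is the first keratin pair of the mouse embryo and marks simple, one-layered epithelia such as trophectoderm, early surface ectoderm, gut lining and notochord, while Krt19 and Krt7 join them in subsets of these, such as ducts. Neural tube and mesenchyme are known for vimentin and nestin filaments instead.

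Each deposited value is a linear ratio of an array to a reference of its own probe. For Krt8 the ratio was 1 (within 1e-05) on neural crest array 1, for Krt18 and Krt7 on paraxial mesoderm array 3 and for Krt19 on neuroepithelium array 1, so those arrays sit at the reference. A gene silent everywhere and a gene equally active everywhere both lie near 1, hence the ratios hold no level, and keratins cannot be ranked against each other by them. An array is called high for a gene at a ratio of at least 4. Since the number of cells on an array is not labelled, fewer keratin cells and less keratin RNA per cell cannot be told apart.

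Some arrays did not carry the markers of their label. The 9 measured paraxial mesoderm markers, among them Meox1, Tcf15 and Foxc2, lay between 0.821 and 1.42 on every array, so no array stood out as paraxial mesoderm by them. Paraxial mesoderm array 1 was high for 6 of 6 primitive erythrocyte markers and array 2 for 6 of 19 epithelial junction genes. Array 3 was high for 2 of 7 notochord markers (Nog and Foxa2) and 2 of 12 gut endoderm markers (Apela and again Foxa2). Of 8 neuroepithelium markers 5 stayed within 2-fold of the reference on all arrays, and Otx2 was high on neuroepithelium array 3 and on paraxial mesoderm array 2. Neuroepithelium arrays 1 and 2 had 0 of the 8 high. Neural crest arrays had 1 to 5 of 8 crest markers high, with Snai1 high on all 5. Neuroepithelium arrays 2 and 3 each had 1 crest marker high as well, Twist1 (5.92) and Tfap2b (22.6), the same count as crest arrays 1 and 4. The number of genes high on an array ran from 382 to 1620. As a share of all genes that was 3.69%, 2.91% and 5.64% on the neuroepithelium arrays, 2.06%, 5.81%, 5.34%, 2.06% and 7.55% on the crest arrays and 8.13%, 4.05% and 1.92% on the mesoderm arrays.

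Krt8, the type II keratin of the first pair, split the 11 arrays into 2 sets far apart. Its ratios were 35.2, 34.0 and 33.9 on neuroepithelium arrays 1 to 3. On neural crest arrays 1 to 5 they were 1.00, 0.525, 36.3, 0.979 and 0.578. On paraxial mesoderm arrays 1 to 3 they were 0.455, 34.4 and 30.5. Krt8 was thus high on 6 arrays, namely every neuroepithelium array, crest array 3 and mesoderm arrays 2 and 3. The 6 high ratios lay within 1.19-fold of each other, and the lowest of them exceeded the highest of the other 5 arrays by 30.5-fold. The tissues overlapped, since crest array 3 had the highest ratio of all.

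Krt18, the type I partner of Krt8, was high on fewer arrays. Its ratios were 91.6, 72.4 and 78.6 on the neuroepithelium arrays. They were 1.04, 0.896, 0.889, 0.891 and 0.863 on the crest arrays. They were 0.825, 88.8 and 1.00 on the mesoderm arrays. All 3 neuroepithelium arrays and mesoderm array 2 were high, with a 69.3-fold gap down to the next array. No crest array came near them, so neuroepithelium and crest did not overlap, whereas mesoderm array 2 lay inside the neuroepithelium range.

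Krt19, the type I keratin of ductal and other simple epithelia, was high on a single array. It reached 65.0 on paraxial mesoderm array 2, where arrays 1 and 3 had 1.00 and 0.954. The neuroepithelium arrays had 1.00, 1.06 and 0.959. The crest arrays had 1.04, 0.985, 0.993, 0.988 and 0.916. The array that stood out was one on which Krt8 and Krt18 were high as well.

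Krt7, the second type II member, was high on a single array too, but on another one. It reached 16.2 on neuroepithelium array 3, against 0.996 and 0.986 on arrays 1 and 2. The crest arrays had 1.11, 1.03, 1.01, 1.12 and 0.938. The mesoderm arrays had 0.897, 0.927 and 1.00. Krt7 and Krt19 were therefore never high together, and each joined Krt8 and Krt18 on 1 of the 4 arrays where that pair was high.

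**Figure D1:**
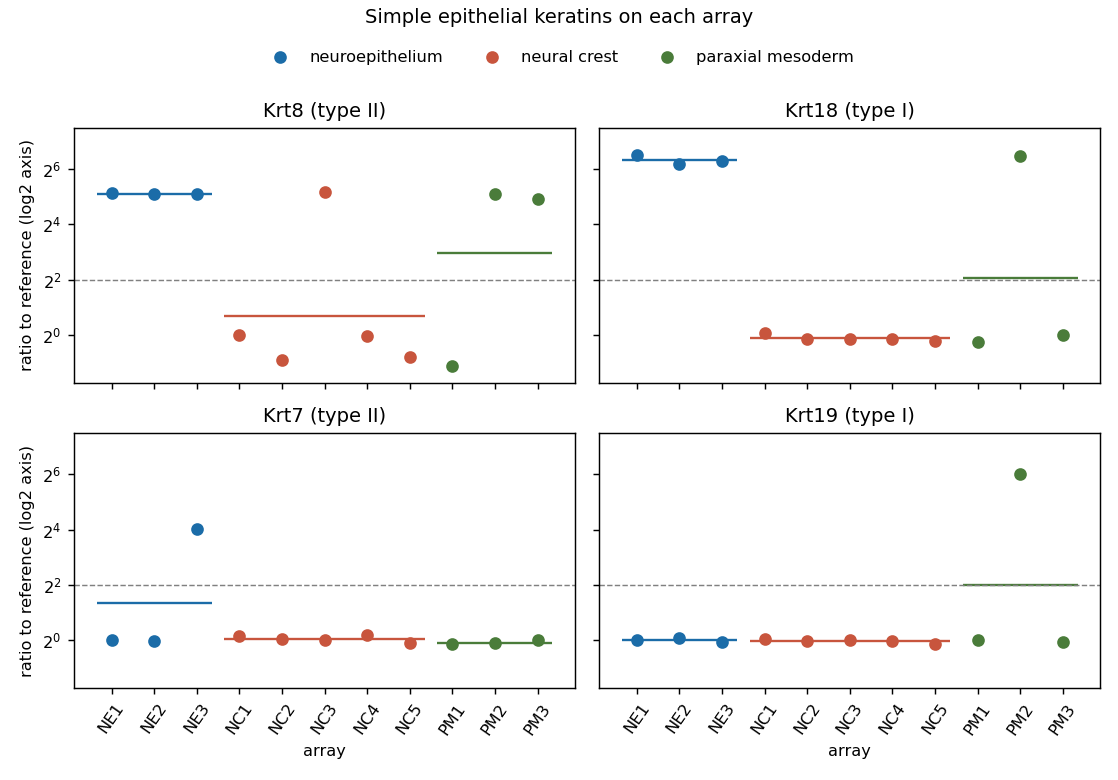
Ratio to the probe's own reference (log2 axis) for each of the 4 keratins on each array, with neuroepithelium (NE1 to NE3), neural crest (NC1 to NC5) and paraxial mesoderm (PM1 to PM3); solid lines are the tissue means of the log2 ratio and the dashed line marks a ratio of 4. Krt8 was high on 6 arrays, Krt18 on 4, and Krt7 and Krt19 on 1 each.

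Being high on some array was common on this platform, and the count of members with a high array is no result about keratins. Of all 19938 genes, 21.7% were at least 4-fold high on some of the 11 arrays, and all 4 keratins were chosen for it. What the array values add is which arrays the members shared.

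The type I and type II partners rose on the same arrays in part. Krt8 and Krt18 were both high on 4 arrays, the 3 of neuroepithelium and mesoderm array 2. Neither was high on 5 arrays, namely crest arrays 1, 2, 4 and 5 and mesoderm array 1. Krt8 was high and Krt18 not on 2 arrays, crest array 3 (36.3 against 0.889) and mesoderm array 3 (30.5 against 1.00). The reverse, Krt18 high without Krt8, occurred on 0 arrays. Wherever a type I member was high, a type II member was high, but the type II member Krt8 was also high without either type I member. Since the points fall into separate sets, no correlation coefficient is given for the pair.

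**Figure D2:**
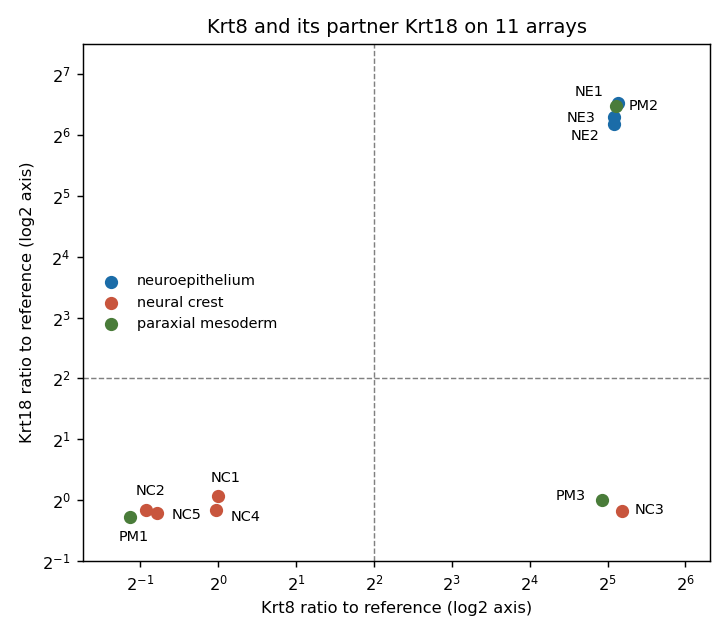
Krt18 ratio against Krt8 ratio on each of the 11 arrays (both axes log2), coloured by tissue, with dashed lines at a ratio of 4. The arrays form 3 sets: 4 with both genes high, 2 with Krt8 alone high (NC3 and PM3) and 5 with neither.

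The partner question was then put to a list of other keratins. Of the type I keratins 26 further listed genes were measured, among them the epidermal Krt14 and Krt10 and the intestinal Krt20. Of these, 0 were high on any array, against 21.7% of all genes. The 4 members were chosen for being high, so the lack of high keratins among the rest is partly set by that choice. The 26 genes lay between 0.625 and 1.39 over all arrays. On crest array 3, where Krt8 was high without Krt18, they ran from 0.842 (Krt35) to 1.15 (Krt26). On mesoderm array 3 they ran from 0.922 (Krt39) to 1.18 (Krt33b). No other listed type I keratin was thus high on the arrays with Krt8 alone, although one active to the same degree on every array would not show in these ratios. The 21 further listed type II keratins that were measured, such as the epidermal Krt5 and Krt1, lay between 0.818 and 1.77. The highest ratio was for Krt87 on crest array 4, and 0 of them were high. Krt88, a keratin beside Krt7 that was not on the list, lay between 0.754 and 1.31.

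**Figure D3:**
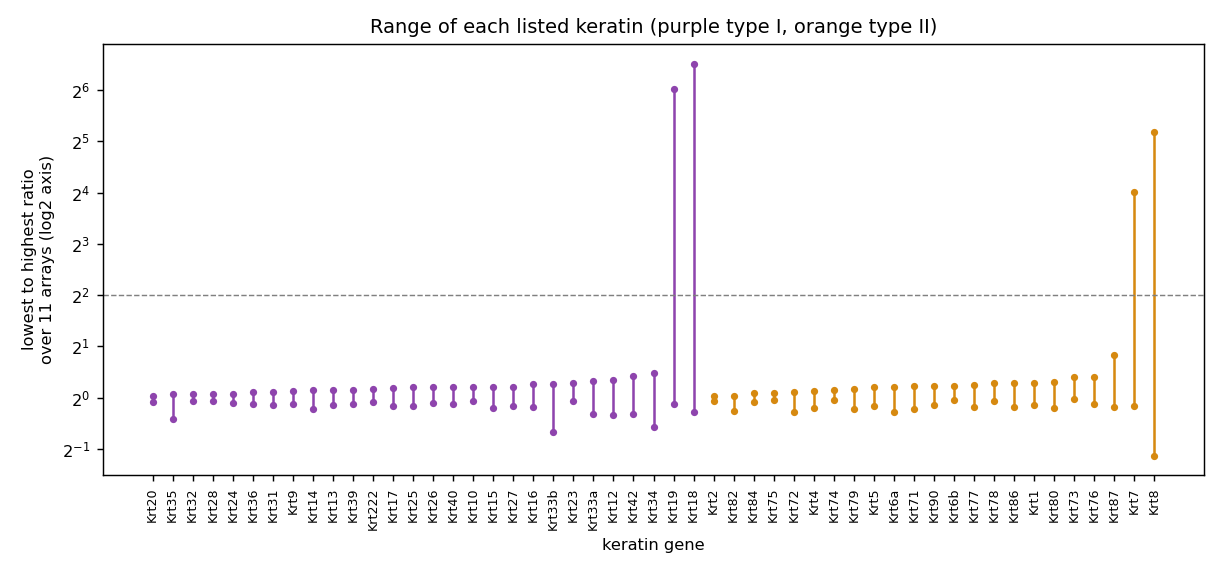
Lowest and highest ratio over the 11 arrays (log2 axis) for the 4 members and for 26 further type I and 21 further type II keratins, with a dashed line at a ratio of 4. Krt8, Krt18, Krt19 and Krt7, which were chosen for being high, cross the line, and the other listed keratins reach at most 1.77.

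Tissue means follow from these patterns. The mean log2 ratio of Krt8 was 5.10 ± 0.03 (SD, n = 3) in neuroepithelium, 0.69 ± 2.55 (n = 5) in crest and 2.97 ± 3.55 (n = 3) in mesoderm. The large SDs come from arrays on either side of the gap. Crest minus neuroepithelium was -4.42 (SE 1.76) in limma and ranged from -5.54 to -4.01 with 1 array left out. Both differences that involve mesoderm rested on single arrays. Mesoderm minus neuroepithelium was -2.13 (SE 1.97), and -0.08, -3.20 and -3.12 without mesoderm array 1, 2 or 3. Crest minus mesoderm was -2.28 (SE 1.76), and -4.33, -1.21 and -1.30 without the same arrays.

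For Krt18 the means were 6.33 ± 0.17 in neuroepithelium (n = 3), -0.13 ± 0.11 in crest (n = 5) and 2.06 ± 3.82 in mesoderm (n = 3). Crest minus neuroepithelium was -6.46 (SE 1.33), and -6.54 to -6.37 with 1 array left out. Mesoderm minus neuroepithelium was -4.27 (SE 1.49) with mesoderm array 2 and -6.47 without it, and crest minus mesoderm was -2.19 (SE 1.33) with that array and 0.01 without it. Without mesoderm array 1, crest minus mesoderm was -3.37. Mesoderm array 2 alone therefore set apart mesoderm from crest for Krt18.

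Krt19 and Krt7 each owed their tissue differences to 1 array. Mesoderm minus neuroepithelium was 1.98 (SE 1.36) for Krt19, -0.04 without mesoderm array 2, and 2.97 and 3.00 without mesoderm array 1 or 3. Crest minus neuroepithelium was -1.27 (SE 0.81) for Krt7, 0.07 without neuroepithelium array 3, and -1.94 and -1.95 without neuroepithelium array 1 or 2. Away from those arrays, Krt19 lay between 0.916 and 1.06 and Krt7 between 0.897 and 1.12 in all tissues.

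Few genes passed the test over all genes in any comparison. At a limma adjusted p under 0.05, 0.0301% of genes passed between crest and neuroepithelium (0.0201% lower in crest), 0.015% between mesoderm and neuroepithelium and 0.01% between crest and mesoderm. The SEs of the keratins share one estimate of spread over all 11 arrays, so mesoderm array 2 also widens the SE of the crest and neuroepithelium comparison for Krt18.

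Krt8 and Krt18 are neighbours in the type II keratin cluster on chromosome 15, with only 2 non-coding RNA genes listed between them, and Krt7 lies in the same cluster. Krt19 lies in the type I cluster on chromosome 11. Of the 3 listed genes on each side of the members, 20 genes in all without the members, 12 were measured and 1 was high on some array. Of all genes 21.7% were, and 12 genes are too few to tell the count from that share. Krt78, Krt79 and Krt4, which flank Krt8, stayed between 0.859 and 1.22. On the far side of Krt18, Tns2 stayed between 0.887 and 1.17. The translation factor gene Eif4b was high on crest array 5 (14.2) and mesoderm array 2 (12.6). It shared mesoderm array 2 with Krt8 and Krt18, but neither keratin was high on crest array 5. Krt15 and Krt9, beside Krt19, lay between 0.873 and 1.16. None of the other measured genes around Krt8 and Krt18 was thus high on all 4 arrays where both keratins were high.

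RefSeq promoter sequences of build GRCm38.p6 matched 3 of the 4 members, and Krt19 is named only. The 250 bases before the start of Krt8 and Krt18 are shown because these partners were high together on 4 arrays and apart on 2. Capitals mark matches to 7 motifs searched on both strands. Motifs of epithelial and general activators were GCCNNNGGC for AP-2, GGGCGG for Sp1, AACCNGTT for Grainyhead factors and CCGGAAGT for ETS factors. The stress-responsive AP-1 factors were searched as TGANTCA. The core promoter element known as the TATA box was searched as TATAAA. The E-box that zinc-finger repressors of the Snail family can bind was searched as CACCTG. The first sequence is chr15:102004343-102004592 on the minus strand and the second chr15:102027966-102028215 on the plus strand.
Krt8: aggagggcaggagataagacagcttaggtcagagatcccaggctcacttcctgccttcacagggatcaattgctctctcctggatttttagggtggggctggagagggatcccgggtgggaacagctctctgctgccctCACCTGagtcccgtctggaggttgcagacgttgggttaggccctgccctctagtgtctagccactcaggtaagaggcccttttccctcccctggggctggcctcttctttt
Krt18: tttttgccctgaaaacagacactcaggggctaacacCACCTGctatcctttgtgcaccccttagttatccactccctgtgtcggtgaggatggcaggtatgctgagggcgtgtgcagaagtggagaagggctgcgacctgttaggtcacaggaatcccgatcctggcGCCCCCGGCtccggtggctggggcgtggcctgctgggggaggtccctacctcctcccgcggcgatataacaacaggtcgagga

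The E-box CACCTG was found once in each of these windows, from 111 to 106 bases before the start of Krt8 and from 214 to 209 before that of Krt18. The same letters occurred in 17.2% of all 32851 promoters. Krt18 also held an AP-2 match, present in 13.7% of promoters, and Krt8 held none in this window. Krt7 held 1 E-box, 2 AP-2 and 4 Sp1 matches, with 1 AP-2 match overlapping an Sp1 match, and Sp1 letters occurred in 32.7% of promoters. The AP-1, TATA box, Grainyhead and ETS letters were in none of the 3 windows. GC content was 58.0% for Krt8, 60.4% for Krt18 and 66.0% for Krt7, with a median of 52.4% over all promoters. A match describes these letters and says nothing of binding.

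Snai1, a Snail repressor that can silence epithelial genes, was high on every crest array (51.0, 47.0, 82.1, 54.9 and 41.2) and lay between 0.800 and 1.17 on all others. It passed between crest and neuroepithelium (log2 difference 5.78, limma adjusted p = 9.22e-06) and between crest and mesoderm (5.80, limma adjusted p = 2.66e-05), but not with an intensity trend in the fit (limma adjusted p = 0.0572 and 0.183). Krt18 lay between 0.863 and 1.04 on all 5 arrays where Snai1 was high. It lay near the reference also on mesoderm arrays 1 (0.825) and 3 (1.00), where Snai1 was not high. Krt8 was high on crest array 3, the array with the highest Snai1 ratio. Whether Snai1 bears on either keratin was not tested.

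Junction genes of epithelia showed which arrays carried other epithelial transcripts. Of 19 measured, 8, 4 and 9 were high on neuroepithelium arrays 1 to 3, 0 on any crest array, and 2, 6 and 0 on mesoderm arrays 1 to 3. On neuroepithelium array 1, the 8 junction genes compare with 3.69% of all genes. The 4 arrays with both keratins high thus had 4 to 9 junction genes high, and the 2 arrays with Krt8 alone had 0. The list of junction genes had a median log2 difference of -1.38 between crest and neuroepithelium, against 0.0005 over all genes, with 1 of 19 genes past the threshold.

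The claudin Cldn7, a tight-junction protein, followed Krt18 most closely. Its ratios were 67.6, 57.5 and 42.0 on the neuroepithelium arrays, 92.2 on mesoderm array 2 and 0.717 to 1.05 on the other 7. Cldn4, another tight-junction claudin, had 39.2, 69.6 and 3.98 on neuroepithelium and 45.1 on mesoderm array 2. The vesicle-sorting genes Rab25 and Ap1m2, both of epithelial cells, were high on mesoderm array 2 (84.6 and 68.4) and on neuroepithelium arrays 1 and 3 but not 2. These genes shared mesoderm array 2 with Krt18.

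Epcam, an epithelial adhesion molecule, parted from the keratins on that array. It stood at 41.9, 38.8 and 37.4 on the neuroepithelium arrays and at 1.00 on mesoderm array 2, where Krt8, Krt18 and Krt19 were high. Epcam was the junction gene that passed, lower in crest (log2 difference -5.32, SE 0.05, limma adjusted p = 5.74e-11) and in mesoderm (-5.32, SE 0.05, limma adjusted p = 1.53e-10) than in neuroepithelium, with no overlap. It passed in all 21 settings run, but the small SE and p depended on the fit. With an intensity trend the SE was 0.48 for crest and 0.54 for mesoderm (limma adjusted p = 0.0119 and 0.031). Keratin-high arrays were therefore of 3 kinds, Epcam with claudins in neuroepithelium, claudins without Epcam on mesoderm array 2, and neither on crest array 3 and mesoderm array 3.

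**Figure D4:**
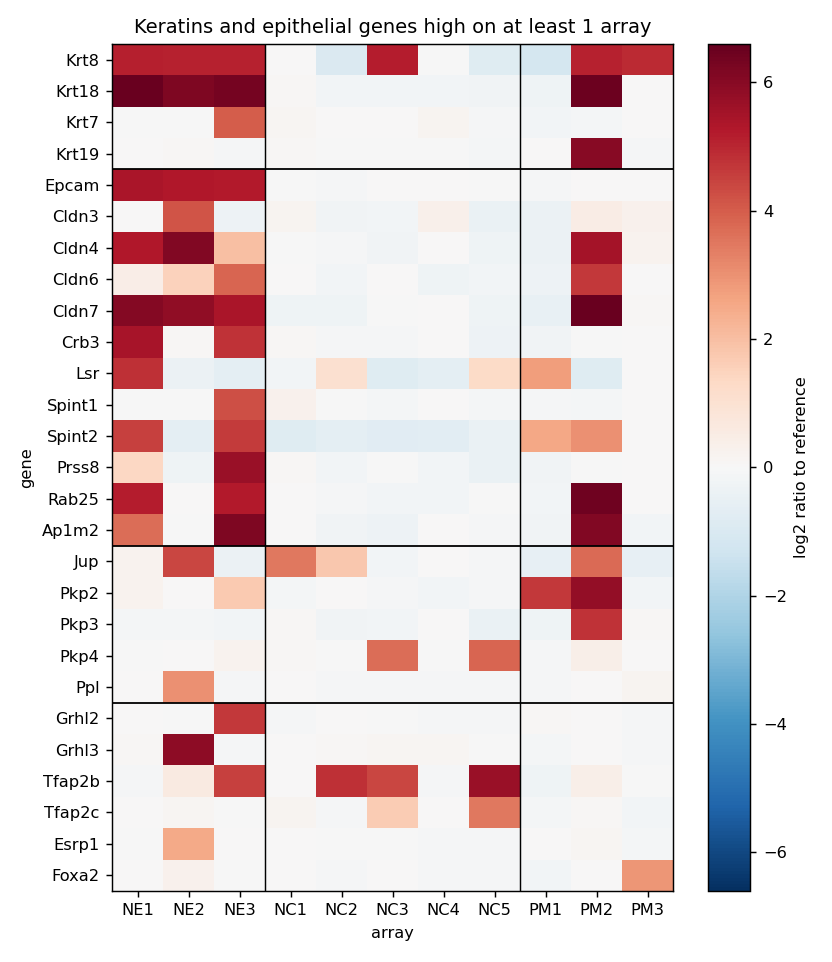
Log2 ratio to reference (colour) of the 4 keratins and, below the lines, of the junction, linker and regulator genes that were high on at least 1 array, for each of the 11 arrays. Columns NE1 to NE3 and PM2 share red cells for Krt8, Krt18, Cldn7 and Cldn4, whereas NC3 and PM3 are red for Krt8 and not for the junction genes.

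Desmosomes anchor keratin filaments at cell contacts, and their genes were high on scattered arrays. Of 19 linker genes 5 (26.3%) were high on some array, near the 21.7% of all genes, and 0 passed in any comparison. Jup (plakoglobin), which couples desmosomal cadherins to the filament linkers, was high on neuroepithelium array 2 (21.5), crest array 1 (11.05) and mesoderm array 2 (13.4). The plakophilins Pkp2 and Pkp3 reached 56.3 and 27.1 on mesoderm array 2, and Pkp2 also 25.1 on mesoderm array 1. The plakin Ppl was high on neuroepithelium array 2 (8.10) alone, and Pkp4 on crest arrays 3 (13.1) and 5 (14.1). Dsp, the plakin that binds keratins directly, and Plec were within 2-fold of the reference on all arrays.

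Regulators of epithelial genes were high on differing arrays in all 3 tissues. Grhl3, a Grainyhead factor of surface ectoderm, was at 60.0 on neuroepithelium array 2, with the splicing factor Esrp1 (5.64) and, from the surface ectoderm markers, the ligand Wnt6 (15.0). Its relative Grhl2 was at 25.0 on neuroepithelium array 3 and near 1 elsewhere. The AP-2 gene Tfap2b, also a crest marker, was high on neuroepithelium array 3 (22.6) and on crest arrays 2 (27.9), 3 (21.4) and 5 (51.3), and its relative Tfap2c on crest array 5 (11.2). Foxa2 was the only listed regulator high in mesoderm. In all, 0, 2 and 2 regulators were high on the neuroepithelium arrays, 0, 1, 1, 0 and 2 on the crest arrays and 0, 0 and 1 on the mesoderm arrays. On neuroepithelium array 1 none of the 23 listed regulators was high. Krt8 and Krt18 were high on all 3 neuroepithelium arrays, within 1.04-fold and 1.27-fold. A regulator equally active on every array would lie near 1 in these ratios. The part of the listed regulators in the keratin ratios was not tested. Of the 23 regulators 6 (26.1%) were high on some array, near the 21.7% of all genes, and 0 passed.

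Markers of other cells that use these keratins were counted on the same arrays. Of 14 surface ectoderm markers without the members, 1, 4 and 3 were high on neuroepithelium arrays 1 to 3, 0 to 1 on crest arrays and 0 to 1 on mesoderm arrays. Their mean log2 ratio ran from 0.44 to 1.44 in neuroepithelium, from -0.02 to 0.18 in crest and from -0.09 to 0.38 in mesoderm. Trp63, Krt5 and Krt14, which define stratifying epidermis, stayed within 2-fold of the reference on all arrays. The part of surface ectoderm cells in the keratin ratios was not tested.

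Few gut endoderm markers were high in neuroepithelium or in mesoderm. Of 12, there were 1, 1 and 2 high on neuroepithelium arrays 1 to 3, 0 on any crest array and 0, 1 and 2 on mesoderm arrays 1 to 3. Those in neuroepithelium were Epcam on each array and Cldn6 on array 3, both also on the junction and surface ectoderm lists. The mean log2 ratio of the 12 was 0.47, 0.60 and 0.70 on neuroepithelium, -0.10 to 0.11 on crest and -0.09, 0.37 and 0.85 on mesoderm. The pair high on mesoderm array 3 was Apela (125) and Foxa2 (7.64). Of 7 notochord markers Nog (9.63) and Foxa2 were high on that array and none on any other. Krt8 was high there and Krt18 was not. The visceral endoderm gene Apoa2 was at 26.1 on mesoderm array 2, as 1 of 8 such markers. Trophoblast markers were high on neither of these arrays (0 of 8). On crest array 3 none of the surface ectoderm, gut endoderm, visceral endoderm, notochord or trophoblast markers was high at the limit of 4. Tfap2c, on the surface ectoderm and trophoblast lists, came close to it there at 3.18. The part of these cell types in the keratin ratios was not tested.

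The intermediate filaments of mesenchyme and neural cells were compared on the same arrays. Vim, the vimentin gene, had 1.00, 4.42 and 0.264 on neuroepithelium, 5.76, 2.49, 3.19, 5.35 and 4.67 on crest and 0.0526, 0.0598 and 5.18 on mesoderm. It was low on mesoderm array 2, where 3 keratins were high, but also on mesoderm array 1, where none was. Crest array 3 was high for Krt8 together with Nes (nestin, 8.48) and Ina (internexin, 10.3), filament genes of neural cells, and Ina also reached 35.7 on neuroepithelium array 3. A second Ina probe reached no more than 1.62. Of 13 such genes 4 (30.8%) were high on some array, against 21.7% of all genes, and 0 passed.

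Exact patterns of high arrays were shared with few genes for Krt8 and Krt18 and with many for Krt19 and Krt7. Of the 19938 genes, Krt8 alone was high on exactly its 6 arrays, and no other gene was high on all 6. Only 117 genes (0.587%) were high on 6 arrays and 454 (2.28%) on 4, whichever arrays these were. Few genes could thus share such a pattern, and its rarity is no result about these keratins. The pattern of Krt18 was shared by Cldn7 and by Aifm1, the gene of a mitochondrial protein (5.07, 10.5 and 15.4 on neuroepithelium, 4.70 on mesoderm array 2). Both were named after their values were seen. In all 17 genes (0.0853%) were high on those 4 arrays with or without others, among them both keratins, the border gene Msx1 and the metallothioneins Mt1 and Mt2. By contrast, 162 genes were high on mesoderm array 2 alone, as Krt19 was, and 209 on neuroepithelium array 3 alone, as Krt7 was.

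Likeness over the 11 arrays was measured by Pearson correlation of log2 ratios, as a description. For Krt18 the closest of all genes were Cldn7 (r = 0.996), Lamb1 (0.931), Cldn4 (0.923), Dnah9 (0.908) and Fam50b (0.901). Lamb1, a laminin chain, spanned a ratio of only 0.869 to 1.34, and Dnah9 and Fam50b less. For Krt8 the closest were Sp6 (0.862), Aqp6 (0.853), Olfr76 (0.851), Cyp2b23 (0.850) and Cpa1 (0.838), none of which left the range of 0.867 to 1.14. Among genes high on some array, a limit added after the values were seen, Msx1 was closest to Krt8 (0.827), with ratios of 24.7, 46.1 and 7.97 on neuroepithelium, 32.3 on crest array 3, 34.9 on mesoderm array 2 and 0.957 on mesoderm array 3. The genes nearest to Krt19 (Trmt10a, Tsacc, Nap1l3, Zbtb11os1 and Ino80c) and to Krt7 (Rbbp9, Cda, Spint1, Prkcz and Dhdh) had r of at least 0.998, which rests on 1 high array in each case. Arrays share amplification and normalization, so these coefficients carry no p.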

How the data were processed

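RNA of 11 laser-captured tissue samples was read on 1 Affymetrix mouse ST array each. RMA and build mm9 are named without version or role, per the submitters' processing notes. In the deposited table each value is a linear ratio (fold over a reference of each probe), made by the authors in a way not given in the sources used here. Column medians lay between 0.991 and 1.01, and the lowest ratio was 0.01. Of 35557 probes, 6701 were blank, and 21789 with values had 1 symbol in the platform annotation, giving 19938 genes. A gene with several probes (999 genes) was read from its highest-mean probe. Symbols were checked against RefSeq genes of GRCm38.p6 (21698 matched, 0 changed), whose order gave the neighbours. Promoter sequences, with their coordinates, motif matches and GC content, are from RefSeq on the same build. All 11 columns were matched to samples and 0 were left over.

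Log2 ratios, without a pseudocount, were fitted as 3 tissue means over all 11 arrays with lmFit and eBayes in limma 3.58.1 (R 4.3.3), without an intensity trend, since ratios hold no intensity. P-values were two-sided and Benjamini-Hochberg adjusted over 19938 genes at 0.05. The fit was tested on simulated data. The number of arrays limits precision. Members, gene lists and tests were chosen with earlier results of these data known. The rule for named genes covered the members, listed genes that were high or passed, the 5 closest genes by correlation and the 3 neighbours on each side. Alternatives were the trend, a robust fit, centring, quantile normalization, a pseudocount of 1, a floor of 0.1, a 2-fold filter, averaged probes, the replicate number as a block and single arrays left out.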

Additional observations from a re-analysis of the deposited data

Results flagged for a closer look

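Within the 5 neural crest arrays, 4 of 31 genes examined (the members and the listed family, linker, regulator and junction genes that were high on some array) had 1 array far from the others by Dixon's criterion on the log2 ratio. Chance flags about 1 in 20 groups, but no rate can be read from this count, since genes entered because they were high on some array (Nes and Des on the very crest array named here) and the keratins were picked with their values known. Krt8 stood at 36.3 on crest array 3, with the others at 0.525 to 1.00. Nes stood at 8.48 on the same array, with the others at 0.897 to 1.01. Des, the muscle filament gene desmin, stood at 4.67 on crest array 2, with the others at 0.894 to 1.06. Krt18 stood at 1.04 on crest array 1, with the others at 0.863 to 0.896, a narrow spread near the reference.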

How the results depend on the processing

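The count of 4 arrays with both Krt8 and Krt18 high held with a high limit of 2 or 8 and with centred or quantile-normalized arrays. It was 3 without mesoderm array 2. Averaged probes gave 4 too but could not do otherwise, since each keratin had 1 probe. No Krt8 or Krt18 ratio lay between 1.04 and 30.5, so limits of 2 or 8 and centring had no room to change the count. The count of 2 arrays with Krt8 alone high was 1 without crest array 3 and 1 without mesoderm array 3, since each is one of them. Both of these exclusions, and the one of mesoderm array 2, were chosen after seeing the data. Of 192 alternatives over 12 keratin differences, 6 moved one by more than 1 SD. These 6 left out mesoderm array 2 (Krt18 and Krt19) or neuroepithelium array 3 (Krt7). The 192 include averaged probes and leaving out an array of the tissue outside the comparison, neither of which could move a difference. The SD is wide where arrays of a tissue split, so smaller moves are no sign of stability: with 1 array left out, Krt8 ran from -3.20 to -0.08 for mesoderm minus neuroepithelium and from -4.33 to -1.21 for crest minus mesoderm, both ends set by mesoderm arrays 1 and 2. Genes called numbered 6 between crest and neuroepithelium, 3 between mesoderm and neuroepithelium and 2 between crest and mesoderm. With an intensity trend they were 2, 2 and 0 in limma (582 at unadjusted p under 0.05 for the last). Leaving out 1 array gave 5 to 19, 3 to 37 and 1 to 42 genes. Counts that moved by over 1.5 times were 14, 19 and 16 without neuroepithelium arrays 1 to 3 and 11 without crest array 1 in the first comparison. In the second they were 10, 14 and 13 without neuroepithelium arrays 1 to 3, 5 without crest array 2 and 7, 14 and 37 without mesoderm arrays 1 to 3. In the third they were 1 without neuroepithelium array 2, neuroepithelium array 3 or crest array 3, 5 without crest array 1 and 4, 12 and 42 without mesoderm arrays 1 to 3. With the replicate number as a block the counts were 6, 2 and 3, and the split between crest and neuroepithelium turned from 2 higher and 4 lower in crest to 4 higher and 2 lower. Same-numbered arrays of different tissues did not deviate together (r from -0.15 to 0.05 over 9 pairs). Differently numbered arrays of different tissues had r from -0.17 to 0.17. Such coefficients cannot tell whether arrays share an embryo or a batch. Signal over background cannot be read from ratios.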
